A study of Rattus norvegicus with 20 samples.

Results

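The genes described here encode the nuclear-encoded machinery of oxidative phosphorylation in rat alveolar epithelial cells. They were chosen by symbol, as those of the count table that start with Nduf, Uqcr, Cox4 to Cox8 or Atp5, plus the Sdh genes a to d, Cyc1 and Cycs, without names that mark pseudogenes. The rule found 88 of 17337 genes and dropped 1 pseudogene symbol, Cox6c-ps1. Of the 88, 33 encode complex I, 4 complex II, 9 complex III, 1 cytochrome c, 15 complex IV and 15 complex V. The label of subunits held for these 77. The other 11 matched the symbol rule and are not subunits: the complex I assembly factors Ndufaf1, Ndufaf3, Ndufaf4, Ndufaf5, Ndufaf6 and Ndufaf7, the supercomplex factor Cox7a2l, the factors Atp5s and Atp5sl, and the paralogs Ndufa10l1 and Ndufa4l2. Passing the filter on low counts were 78 of the 88, of which 69 were subunits or cytochrome c. The 13 proteins that mitochondrial DNA contributes to these complexes were not analysed here.

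Primary alveolar type II cells, isolated from Sprague-Dawley rats, took on features of type I cells during 4 days on silastic membranes coated with fibronectin. RNA was read at the 3' ends of its transcripts in 20 libraries, 5 per group, each pooled from 4 technical monolayers of 1 animal, and animals 1 to 5 each gave 1 library to every group. Stretched cells (S) spent 18 h in 0.01% DMSO, followed by a 6 h period of cyclic biaxial stretch (25% change in area, 15 cycles per min), and unstretched cells (NS) had 0.01% DMSO for 24 h. The inhibitor groups S_PI (stretched) and NS_PI (unstretched) had 1 µM GSK2606414, which inhibits PERK, a kinase of the unfolded protein response, for 18 h before the stretch period and, in unstretched cells, for 24 h in the treatment protocol. No DMSO is recorded for S_PI and NS_PI. The labels do not say how type II cells were purified. The comparisons ask how stretch changes transcript levels and whether the inhibitor changes that response.

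In oxidative phosphorylation, complexes I and II pass electrons from NADH and succinate to ubiquinone, complex III passes them on to cytochrome c, and complex IV reduces oxygen. Complexes I, III and IV pump protons across the inner mitochondrial membrane, and complex V, the ATP synthase, uses the return flow to make ATP. Complex II is also an enzyme of the citric acid cycle. The roles given below are those of the mammalian proteins, mostly worked out in bovine and human mitochondria.

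Promoters are shown for the members whose transcripts were lower in S than in NS and that hold a motif of factors known to act on respiratory genes. All 88 members matched RefSeq, 71 by symbol and 17 by synonym, and 75 had a promoter sequence of 300 bases, 250 before the transcription start and 50 after it, on the RefSeq build GRCr8. The motifs searched on both strands were GCGCA, any base and GCGC in a row for NRF1, CCGGAAG for the ETS family that includes GABP, and AAGATGGCG for YY1; overlaps between motifs were allowed. Of the 75 members, 16 (21.3%) held the NRF1 letters, against 4.71% of all 27457 promoters. The ETS letters stood in 20 members (26.7%) against 9.22% of all promoters, and the YY1 letters in 10 (13.3%) against 1.93%. Among the 19005 promoters of protein-coding genes the shares were 6.09%, 11.2% and 2.29%. A match describes letters and is not a binding site. Of the 8 members lower in S, 7 had a promoter and 4 of these held a motif, as did 40 of the 75 members in all. They are printed 5′ to 3′ on the gene's strand with the motifs in capitals: Ndufa6 at chr7:115750268-115750567 on the minus strand, Sdha at chr1:30764303-30764602 on the plus strand, Atp5c1 at chr17:73333435-73333734 on the plus strand and Atp5j at chr11:37375052-37375351 on the minus strand.
Ndufa6: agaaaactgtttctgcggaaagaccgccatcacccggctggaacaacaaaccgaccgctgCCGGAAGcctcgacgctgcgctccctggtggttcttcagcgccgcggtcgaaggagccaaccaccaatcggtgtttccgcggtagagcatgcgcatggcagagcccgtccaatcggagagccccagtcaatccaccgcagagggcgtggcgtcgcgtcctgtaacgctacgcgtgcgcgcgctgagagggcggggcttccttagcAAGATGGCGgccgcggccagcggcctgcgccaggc
Sdha: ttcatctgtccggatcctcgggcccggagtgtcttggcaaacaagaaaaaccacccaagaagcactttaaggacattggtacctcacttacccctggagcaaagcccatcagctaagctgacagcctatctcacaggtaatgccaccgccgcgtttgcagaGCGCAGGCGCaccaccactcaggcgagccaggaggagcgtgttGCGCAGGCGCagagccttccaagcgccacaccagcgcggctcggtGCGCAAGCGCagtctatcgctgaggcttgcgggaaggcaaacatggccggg
Atp5c1: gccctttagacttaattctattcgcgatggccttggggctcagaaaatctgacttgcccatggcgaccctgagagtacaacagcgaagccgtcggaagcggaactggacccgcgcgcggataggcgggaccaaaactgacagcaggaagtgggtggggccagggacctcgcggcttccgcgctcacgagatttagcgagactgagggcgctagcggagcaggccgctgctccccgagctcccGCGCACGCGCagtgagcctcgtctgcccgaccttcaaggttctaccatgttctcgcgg
Atp5j: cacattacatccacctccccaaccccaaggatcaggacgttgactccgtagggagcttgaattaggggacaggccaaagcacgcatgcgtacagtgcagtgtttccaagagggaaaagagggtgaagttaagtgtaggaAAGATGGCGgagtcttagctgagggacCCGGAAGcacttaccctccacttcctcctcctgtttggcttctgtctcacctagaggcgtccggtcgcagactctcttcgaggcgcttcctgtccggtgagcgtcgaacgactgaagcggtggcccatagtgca
Ndufa6 and Atp5j each held 1 ETS and 1 YY1 match, Atp5c1 held 1 NRF1 match and Sdha held 3 NRF1 matches.

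Counts on genes ranged from 999209 to 3131541 per library, and the 88 members took 1.46 to 2.10% of them. Levels are given in CPM, counts relative to the library size after scaling by trimmed mean of M values (TMM). Each transcript gives 1 fragment near its 3' end, so CPM values were not divided by gene length. Levels of different genes are compared only roughly. Records aligned to several places, 35.5 to 57.7% per library, were not counted, and their share may differ between genes. A count of 3, taken as the detection floor, was 1.07 to 3.04 CPM, and the floor covers counting error only. Among marker genes, the summed alveolar type I list (12 genes, 10 tested) spanned 1996 to 7993 CPM in NS and 1230 to 6938 in S, and was lower in S in 4 of 5 animals. The macrophage and leukocyte list (13 genes, 9 tested) spanned 1495 to 10230 CPM in NS and 1950 to 13540 in S, and was higher in S in 5 of 5 animals. Of the tested genes of these lists 4 of the 10 type I genes (40%) were lower and none higher by edgeR's quasi-likelihood test. Of the 9 leukocyte genes 4 (44.4%) were higher and none lower. Of all 8320 tested genes 12.5% were called higher and 12.4% lower. The fibroblast and smooth muscle list (10 genes, 7 tested) spanned 3258 to 7515 CPM in NS and 3982 to 12450 in S, and its sum was higher in S in 4 of 5. Of its 7 tested genes 1 (14.3%) was called, the abundant Col1a1, which rose from a mean of 3922 to 6270 CPM. Log2 estimates were positive for 5 of the 7 and negative for 2, Pdgfra (-0.94) and Pdgfrb (-0.54), which did not pass. With inhibitor the type I sum was lower in stretched cells in 4 of 5 animals, with 7 of the 10 genes called lower and 1 higher, Cav1. The leukocyte and fibroblast sums were then higher in 4 and 5 of 5 animals, with 4 of 9 leukocyte genes higher and none lower, and 3 of 7 fibroblast genes higher (Col1a1, Dcn and Des) and 1 lower (Pdgfrb). Of all tested genes 15.2% were called higher and 15.3% lower with inhibitor. Type II markers spanned 366.8 to 793.6 CPM in NS and 383.5 to 879.3 in S, and airway markers 563.6 to 2263 and 271.9 to 2102. The 6 endothelial markers together spanned 1.62 to 9.264 CPM in NS and 1.282 to 5.007 in S. Of them Cdh5 and Cldn5 were at 0 in every library and the other markers were low. Hba1, Hba2 and Hbb, of the 4 red blood cell markers, were at 0 in every library. In such mixed RNA, fewer cells of a type and less RNA per cell cannot be told apart, and the part of these shifts in the results below was not tested.

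In NS the most abundant member was Atp5g3, which encodes the membrane ring subunit c of ATP synthase, at 1623 to 2194 CPM. Atp5g1 and Atp5g2 encode the same mature subunit c, and Atp5g1 (489 to 694 CPM) and Atp5g2 (117 to 272 CPM) lay below it without overlap between them. The next highest were Cox7c (845 to 1194 CPM), a small subunit of complex IV, and Atp5l (912 to 1069 CPM), subunit g of ATP synthase, whose ranges overlapped. In complex I the highest mean over the 20 libraries was that of Ndufc2, a membrane-arm subunit, at 250 to 348 CPM in NS, and in complex III that of Uqcrh, the acidic hinge protein, at 430 to 542 CPM. The 4 genes of complex II lay close together, with NS means of 129 for Sdha, 157 for Sdhb, 200 for Sdhd and 207 for Sdhc, and the ranges of Sdhc and Sdhd overlapped. Cycs, the mobile carrier cytochrome c, was low at 9.26 to 21.1 CPM. The counts of Cycs, Uqcrb, Ndufa1, Ndufs5, Ndufv3 and Atp5f1 are less certain, because each symbol carries several gene identifiers in the authors' deposited table.

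**Figure D1:**
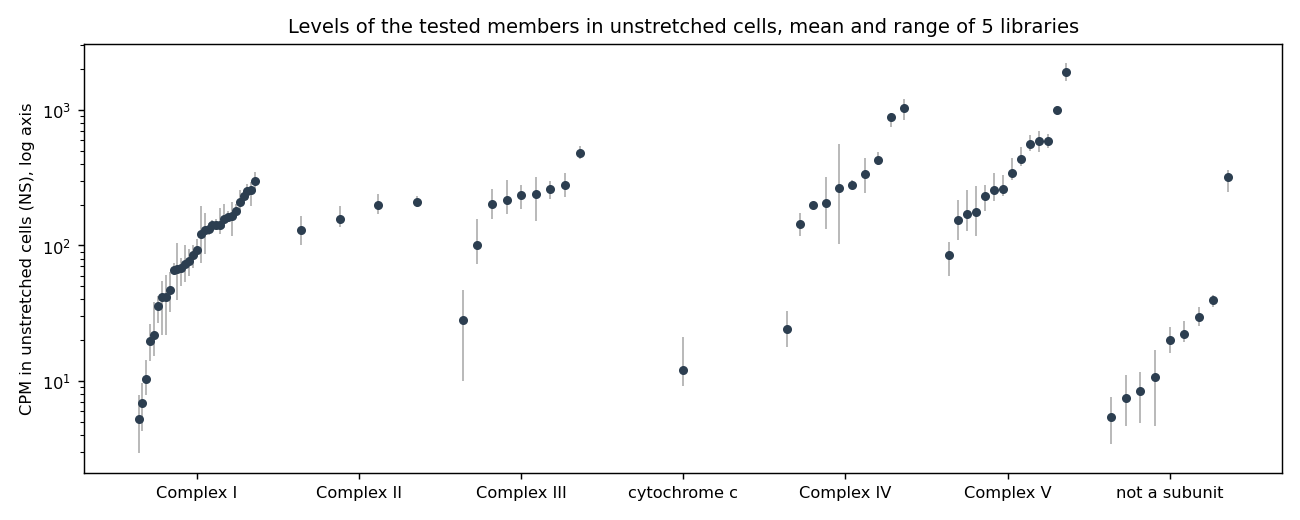
Levels of the 78 tested members in unstretched cells without inhibitor (NS), in CPM on a log axis, by complex. Points are means of 5 libraries and lines their range; Atp5g3 of complex V is the highest point, and the single point of cytochrome c is Cycs.

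The isoforms known from striated muscle, adult lung or testis were low in mean level, though single libraries stood above the floor. They lay far below their ubiquitous counterparts where these were among the members. Cox4i2, the lung isoform of subunit 4, had a mean of 0.92 CPM over the 20 libraries, beside 152.5 CPM for its ubiquitous counterpart Cox4i1. Cox6a2 had 2.73 CPM beside 474 for Cox6a1, and Cox6b2 had 0.99 CPM. The counterpart of Cox6b2, Cox6b1, was not among the members, so this pair could not be compared. The highest single values were 13.5 CPM for Cox6a2, in S of animal 1, 5.43 for Cox4i2, in S_PI of animal 5, and 4.07 for Cox6b2, in S_PI of animal 3. Cox8b and Cox8c had 1 read each in all libraries together, beside 217 CPM for Cox8a. Ndufa4l2 had 1 read beside 367 CPM for Ndufa4. Cox7a2 stood at 25.3 CPM, and its relative Cox7a2l, which joins complexes III and IV, at 337 CPM. Ndufa12 (3.93 CPM), Ndufa1 (0.25 CPM), Atp5f1 (4 reads) and Ndufa10l1 (0 reads) also failed the filter, which makes 10 members not tested. Atp5f1 encodes subunit b of the ATP synthase stalk, and Ndufa1 a small membrane-arm subunit that every complex I holds. Levels also differed between animals, and Cox5a is an example. Cox5a, a matrix-side subunit of complex IV, stood at 496 to 601 CPM in the 4 libraries of animal 1, at 94.2 to 108 in animal 2, at 103 to 134 in animal 3, at 263 to 355 in animal 4 and at 248 to 320 in animal 5.

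Without inhibitor, stretch lowered 8 of the 78 tested members and raised none, by edgeR's quasi-likelihood test with Benjamini-Hochberg adjustment over 8320 genes and adjusted p below 0.05. The 8 are 10.3% of the members, beside 24.9% of all tested genes, of which 12.5% were higher and 12.4% lower. At an unadjusted p below 0.05 there were 20 members, and DESeq2 called 7 lower and 3 higher (Cox6a1, Cyc1 and Uqcrh). With library-size scaling 12 members were lower, 15.4% beside 25.8% of all genes. The 8 encode the Rieske protein Uqcrfs1 and Uqcrb of complex III, Sdha and Sdhc of complex II, Atp5c1 and Atp5j of complex V, Ndufa6 of complex I and the assembly factor Ndufaf7. Their log2 fold changes lay between -0.37 and -0.66. The median over the 78 members was -0.06 (0.020 without animal 2), beside -0.01 over all genes, and 45 members had a negative value and 33 a positive one. Groups did not overlap in 6 of 78 members (7.69%), all lower in S, beside 7.34% of all genes. The 95% confidence interval of the fold change lay within a 2-fold change either way for 70 of the 78 members and within 1.5-fold for 43. The median size of the log2 change was 0.23 among the members and 0.32 among all genes; the members were also the more abundant, with a median of 147.8 CPM beside 37.55. The calls were sensitive to single animals: none of the 8 was called without animal 2, and 2 of them without animal 1, Uqcrfs1 and Ndufaf7. Without the animal block 2 of the 8 were called, Uqcrfs1 and Ndufa6, and in a fit of the S and NS libraries alone only Uqcrfs1 was.

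**Figure D2:**
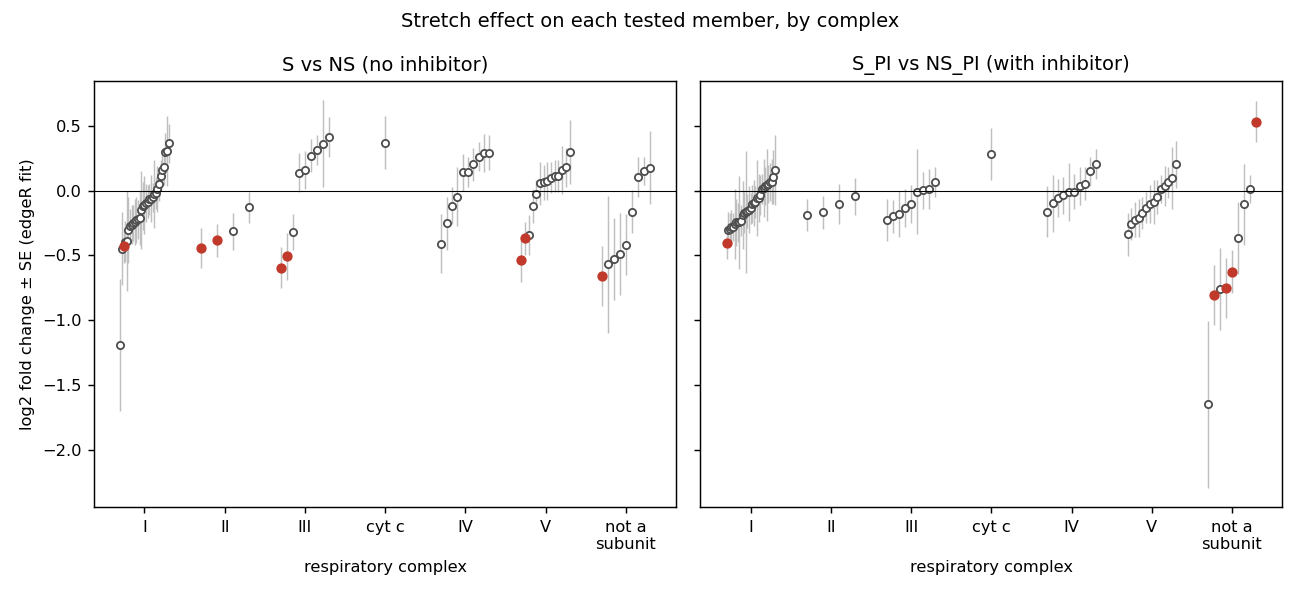
Log2 fold change of each tested member between stretched and unstretched cells, without (left) and with (right) the inhibitor, by complex. Bars are standard errors, filled red points passed an adjusted p of 0.05 in edgeR's quasi-likelihood test, and points within a complex are ordered by value; the red points number 8 on the left and 5 on the right, 4 of the latter among proteins that are not subunits.

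In complex I, 1 of 31 tested subunits (3.23%) was lower with stretch and none was higher, beside 12.4% and 12.5% of all tested genes. Estimates were negative for 23 and positive for 8 of the 31, and with inhibitor for 22 and 9. Of all tested genes 49% and 48.6% were positive. The summed CPM of complex I was lower in S in 4 of 5 animals, with a log2 ratio of -0.055 ± 0.17 (SD, n = 5). With inhibitor it was lower in 5 of 5, with -0.135 ± 0.11 (SD). The groups overlapped. Ndufa6, an accessory subunit of the matrix side that holds an acyl carrier protein, had 201, 167, 139, 138 and 135 CPM in NS (animals 1 to 5) and 103, 108, 131, 112 and 123 CPM in S. It was lower in S in 5 of 5 animals and the groups did not overlap. The log2 fold change was -0.43 ± 0.13 (SE), adjusted p = 0.0213 by edgeR's quasi-likelihood test; leaving out animal 1 (-0.28, adjusted p = 0.123) or animal 2 (-0.36, adjusted p = 0.11) ended the call. None of the 7 core subunits passed the test in either stretch comparison. They include the subunits that carry the flavin and the iron-sulfur clusters or bind ubiquinone. Ndufs8 was called lower without animal 1 (-0.68, adjusted p = 0.020) and Ndufv1 higher without animal 5 (0.46, adjusted p = 0.0486), both without inhibitor. Ndufv2 was called lower with inhibitor on leaving out animal 1 (-0.49, adjusted p = 0.00895) and with library-size or upper-quartile scaling. The median log2 fold change of the core subunits was -0.15 without inhibitor, and that of the 24 tested supernumerary subunits was -0.09. Ndufs6, a zinc-binding subunit of low level, had the largest estimate, -1.19 ± 0.51 with adjusted p = 0.0904, from NS values of 7.80, 7.86, 3.71, 2.93 and 3.78 CPM and S values of 2.00, 1.42, 3.08, 7.09 and 0 CPM. It was higher in S in animal 4, and most of these values are only a few counts. Without animal 4 it was called at -1.84 (adjusted p = 0.0162), and so was Ndufa11, a membrane-arm subunit, at 0.52 (adjusted p = 0.0348). The most abundant subunit, Ndufc2, had 348, 308, 250, 265 and 320 CPM in NS and 127, 277, 272, 267 and 325 CPM in S. Animal 1 alone was far lower in S, and the log2 fold change of -0.25 ± 0.18 had an adjusted p of 0.329.

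Complex II was lower in S through all 4 of its genes in estimate. Of the 4, 2 (50%) passed the test, beside 12.4% of all tested genes called lower. Sdha, the flavoprotein that oxidises succinate, had 166, 154, 120, 100.3 and 105 CPM in NS and 72.6, 115, 92.3, 96.2 and 92.3 CPM in S. It was lower in S in 5 of 5 animals, with groups that overlapped, and the log2 fold change was -0.45 ± 0.15 (adjusted p = 0.0392). Sdhc, 1 of the 2 membrane anchors, had 229.95, 208, 201, 192 and 206 CPM in NS and 139.7, 174, 178, 163 and 138 CPM in S. Its groups did not overlap, and the log2 fold change was -0.39 ± 0.13 (adjusted p = 0.0299). Sdhd, the other membrane anchor, was lower in S in 4 of 5 animals, at 171 to 239 CPM in NS and 109.7 to 186 in S, with -0.31 ± 0.14 (adjusted p = 0.111). Sdhb, the iron-sulfur subunit, was lower in 3 of 5 animals, with -0.13 ± 0.12 (adjusted p = 0.455). All adjusted p are from edgeR's quasi-likelihood test with Benjamini-Hochberg adjustment. Animal 1 had the largest fall in the sum of the 4 genes, from 766 to 459 CPM. Without animal 1 the log2 fold change of Sdha was -0.26 (adjusted p = 0.194). The call of Sdha was also lost without animal 2, 3 or 5, where its adjusted p lay between 0.074 and 0.109, and the call of Sdhc was lost on leaving out any 1 animal, with adjusted p from 0.0538 to 0.156.

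The sum of the 4 complex II genes was 766, 751, 656.5, 677 and 619 CPM in NS and 459, 608, 615, 548 and 553 CPM in S. Every S value lay below every NS value. The mean change within animals was -20.0%, a log2 ratio of -0.32 ± 0.25 (SD, n = 5), and without animal 1 the ratio was -0.20. Stretch accounted for 40.2% of the variance of the log2 sum over the 20 libraries and animal for 13.7%. With inhibitor the sum was 758, 704, 686, 655 and 582 CPM in NS_PI and 678, 590.1, 603, 656 and 569 CPM in S_PI. It was lower in 4 of 5 animals with overlapping groups and a log2 ratio of -0.13 ± 0.11 (SD, n = 5). The interaction, or difference between the stretch effects in cells with and without inhibitor, passed the test for none of the 4 genes, with estimates of 0.34 ± 0.22 for Sdha, 0.27 ± 0.20 for Sdhd, 0.22 ± 0.18 for Sdhc and -0.06 ± 0.17 for Sdhb.

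**Figure D3:**
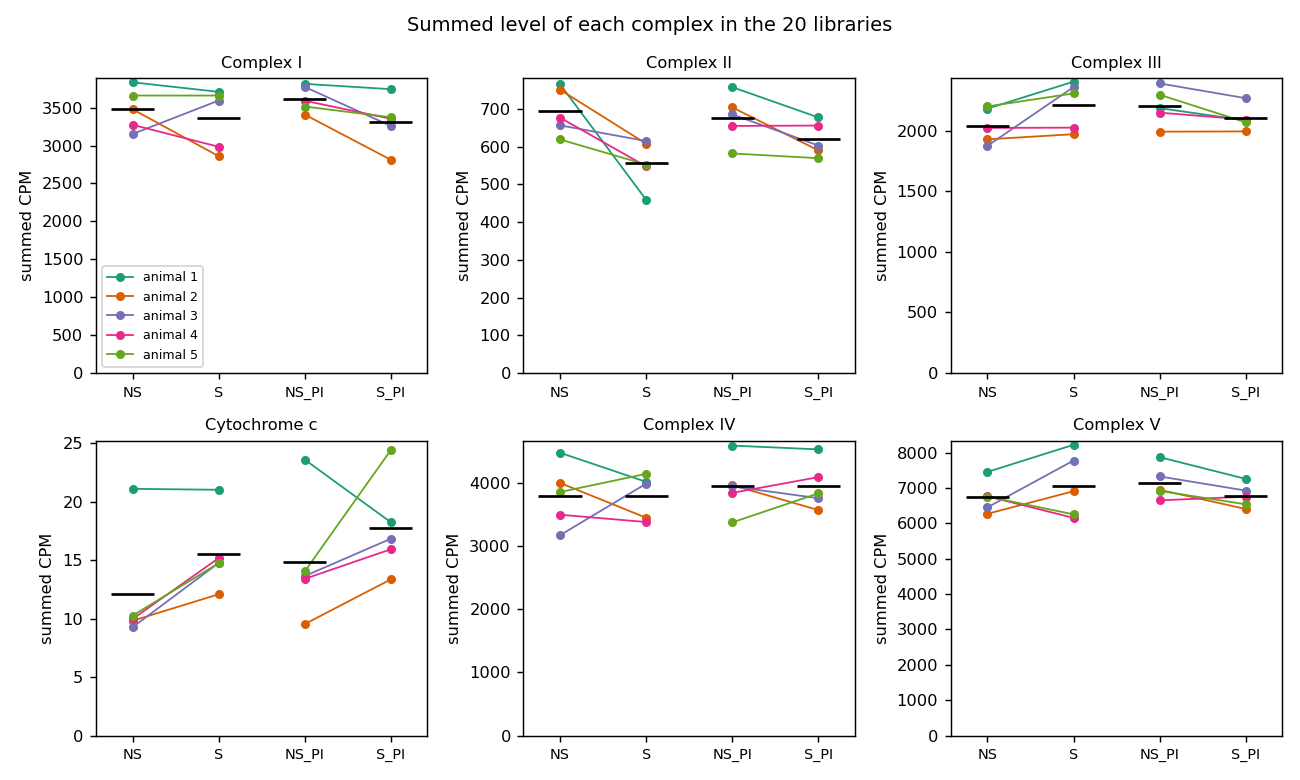
Summed CPM of the members of each complex in the 20 libraries, with a line for each animal within the pair of groups that differ in stretch and a bar for the group mean of 5. The 5 S values of complex II lie below the 5 NS values, and the other complexes overlap between groups.

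The estimates in complex III lay on both sides of 0. Of its 9 genes 2 (22.2%) were lower with stretch and none was higher by the test, beside 12.4% and 12.5% of all tested genes. Uqcrfs1 encodes the Rieske iron-sulfur protein, which takes the first electron from ubiquinol. It had 259.8, 225, 166, 157 and 206 CPM in NS and 111, 125, 154, 120.5 and 149 CPM in S. The groups did not overlap, and its log2 fold change of -0.60 ± 0.16 had the lowest adjusted p of the 78 members, 0.0103 by edgeR's quasi-likelihood test. The call held in 11 of 12 alternative analyses, and without animal 2 the value was -0.52 with adjusted p = 0.0527. It was also the only 1 of the 82 members with a single identifier that had an adjusted p below 0.05 in the authors' deposited table, at 0.0482. That table does not state its direction; its log2 value for Uqcrfs1 was 0.54, of opposite sign to S against NS. Uqcrb, a matrix-side subunit near the ubiquinone site, had 303, 254, 171, 169.5 and 186 CPM in NS and 110.2, 146, 182, 142 and 161 CPM in S. It was lower in 4 of 5 animals, with -0.51 ± 0.18 (adjusted p = 0.0459); without animal 1 it was -0.29 (adjusted p = 0.18), and the call was also lost without animal 2, 4 or 5, where its adjusted p was 0.0733 to 0.151.

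The other genes of complex III included several with positive estimates. Cyc1, the cytochrome c1 haem subunit that hands electrons to cytochrome c, had 152, 159, 277, 319 and 290.1 CPM in NS and 212, 278, 332, 347 and 404 CPM in S. It was higher in S in 5 of 5 animals, but the log2 fold change of 0.42 ± 0.15 had an adjusted p of 0.0541 by edgeR's quasi-likelihood test. Uqcrh, whose acidic stretch helps cytochrome c dock, had 473, 430.3, 456, 492 and 542 CPM in NS and 575, 635, 690.1, 554 and 524 CPM in S, with 0.31 ± 0.12 and adjusted p = 0.0534. Both passed the test with DESeq2 size factors in edgeR and in DESeq2. Without animal 5 the value of Uqcrh was 0.42 with adjusted p = 0.0403. Uqcrc2, a core protein, was lower in S in 5 of 5 animals with -0.32 ± 0.14 (adjusted p = 0.0961). The summed CPM of complex III was 2040.5 ± 146 (SD, n = 5) in NS and 2212.5 ± 201 in S, higher in 5 of 5 animals with a log2 ratio of 0.11 ± 0.13 (SD) and with overlapping groups. With inhibitor the sum was lower in stretched cells in 4 of 5 animals, with a log2 ratio of -0.07 ± 0.06 (SD). Stretch accounted for 1.34% of the variance of the log2 sum and the interaction for 18.8%.

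In complex IV and cytochrome c no member passed the test, beside 24.9% of all tested genes. The largest estimate among the 10 tested genes of complex IV was that of Cox7c, with 1194, 1161, 876, 845 and 1064 CPM in NS and 320.5, 834, 1035, 708 and 1000.0 CPM in S. The value of animal 1 in S stood far below the rest, and the log2 fold change was -0.41 ± 0.23 (adjusted p = 0.192). Cox6a1, a subunit of the intermembrane-space side, was higher in S in 5 of 5 animals, at 390 to 490 CPM in NS and 466 to 553 CPM in S, with 0.26 ± 0.11 and adjusted p = 0.0914. Cox4i1 (0.14 ± 0.15), Cox8a (0.20 ± 0.13), Cox7a2 (-0.25 ± 0.21), Ndufa4 (0.29 ± 0.15) and Cox7a2l (0.15 ± 0.11) did not pass. Cycs had 21.1, 9.82, 9.26, 9.97 and 10.3 CPM in NS and 21.0, 12.1, 14.8, 15.2 and 14.7 CPM in S. It was higher in S in 4 of 5 animals, animal 1 being high in both groups, and the log2 fold change of 0.37 ± 0.21 had an adjusted p of 0.198. All these adjusted p are from edgeR's quasi-likelihood test. The summed CPM of complex IV was 3799 ± 497 (SD, n = 5) in NS and 3794 ± 353 in S.

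In complex V, 2 of 14 tested genes (14.3%) were lower with stretch, near the 12.4% of all tested genes. None was higher, beside 12.5% of all tested genes. Atp5j, coupling factor 6 of the peripheral stalk that holds the catalytic head still, had 256, 189, 127, 133 and 142 CPM in NS and 95.1, 114, 123, 110.4 and 119 CPM in S. The groups did not overlap, and the log2 fold change was -0.54 ± 0.17 (adjusted p = 0.0256). Without animal 1 it was -0.32 (adjusted p = 0.124), and the call was also lost without animal 2 (adjusted p = 0.0805) or 5 (adjusted p = 0.0506). Atp5c1, the gamma subunit that turns inside the catalytic head, had 331, 248, 247, 255 and 229.6 CPM in NS and 195, 196, 223, 164 and 224 CPM in S. The groups lay apart by the gap between 224.4 and 229.6 CPM, and the log2 fold change was -0.37 ± 0.13 (adjusted p = 0.0374); of the analyses without 1 animal only that without animal 5 kept the call, and the others gave adjusted p from 0.0701 to 0.155. All adjusted p are from edgeR's quasi-likelihood test. The subunit c genes Atp5g3 (0.10 ± 0.12), Atp5g2 (0.30 ± 0.25) and Atp5g1 (0.06 ± 0.17) did not pass. The sum of complex V was 6740 ± 451 CPM (SD, n = 5) in NS and 7062 ± 916 in S.

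With inhibitor, stretch lowered 4 of the 78 members and raised 1, which is 6.41% beside 30.5% of all tested genes (15.2% higher and 15.3% lower), and 11 members had an unadjusted p below 0.05. This count depended on the scaling: with library-size scaling 13 members were lower and 1 higher (17.9% beside 31.7% of all genes), and with upper-quartile scaling 10 were lower and 1 higher (14.1% beside 31.8%). Without animal 2 and without animal 5 it was 2 lower and none higher, and without animal 3 it was 1 lower and 1 higher. Of the 69 subunits and cytochrome c 1 was called, Ndufb7, and of the 9 tested proteins that are not subunits 4 were. The subunits called numbered 8 with library-size and 6 with upper-quartile scaling. Ndufb7, an accessory subunit of complex I that faces the intermembrane space, had 190, 142, 164, 136 and 142 CPM in NS_PI and 128, 99.1, 129, 119 and 109 CPM in S_PI. The groups did not overlap, and the log2 fold change was -0.41 ± 0.12 with adjusted p = 0.0161 by edgeR's quasi-likelihood test; without animal 2, 3 or 5 its adjusted p was 0.0525 to 0.0613. The median over the members was -0.10, beside -0.02 over all genes. The groups did not overlap in 5 of 78 members (6.41%), all lower in S_PI, beside 13.8% of all genes. The 95% confidence interval lay within 2-fold for 73 of the 78 members and within 1.5-fold for 56.

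Of the 5 calls with inhibitor, 3 were complex I assembly factors and 1 was Atp5sl; with library-size scaling these kinds made up 6 of 14 calls. Ndufaf3, which acts early in complex I assembly together with Ndufaf4, had 33.8, 32.0, 37.3, 39.8 and 38.4 CPM in NS_PI and 27.4, 23.1, 25.6, 22.02 and 19.0 CPM in S_PI. The groups did not overlap, and the log2 fold change was -0.63 ± 0.17 (adjusted p = 0.0077; 0.058 without animal 5). Its partner Ndufaf4 was the only member higher, with 30.1, 26.6, 35.2, 34.7 and 28.8 CPM in NS_PI and 55.9, 48.6, 34.3, 43.3 and 44.1 CPM in S_PI. It rose in 4 of 5 animals by 0.53 ± 0.16 (adjusted p = 0.0137), and without animal 1, 2 or 5 its adjusted p was 0.0529 to 0.0804. Atp5sl, known as DMAC2 in human cells and needed there for the membrane arm of complex I, had 20.4, 21.2, 29.9, 27.8 and 20.7 CPM in NS_PI and 10.8, 17.6, 11.6, 17.5 and 13.6 CPM in S_PI. The groups did not overlap, with -0.75 ± 0.23 (adjusted p = 0.0183; 0.126 without animal 3 and 0.1 without the animal block). All adjusted p are from edgeR's quasi-likelihood test with Benjamini-Hochberg adjustment.

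Ndufaf7, an arginine methyltransferase that acts in complex I assembly, was called in both stretch comparisons. With library-size or upper-quartile scaling so were Ndufa6 and Atp5c1. With inhibitor their values were -0.30 ± 0.13 for Ndufa6 (adjusted p = 0.0845, or 0.0356 with library-size and 0.035 with upper-quartile scaling) and -0.26 ± 0.13 for Atp5c1 (adjusted p = 0.126, or 0.0412 and 0.0468), each lower in 5 of 5 animals. All these adjusted p are from edgeR's quasi-likelihood test. Ndufaf7 had 19.3, 23.1, 21.0, 21.1 and 27.5 CPM in NS and 18.0, 14.2, 13.5, 15.2 and 9.62 CPM in S. With inhibitor Ndufaf7 had 14.4, 24.5, 26.8, 27.3 and 25.1 CPM in NS_PI and 19.4, 11.5, 13.4, 11.4 and 10.9 CPM in S_PI. Animal 1 was the exception in the second comparison, where its stretched value was the higher. The log2 fold changes were -0.66 ± 0.23 (adjusted p = 0.0396) and -0.81 ± 0.23 (adjusted p = 0.0118) by edgeR's quasi-likelihood test. On leaving out animal 2, 3, 4 or 5 neither call was kept, with adjusted p from 0.0711 to 0.235 and from 0.0515 to 0.0699. Both comparisons use different libraries of the same 5 animals.

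**Figure D4:**
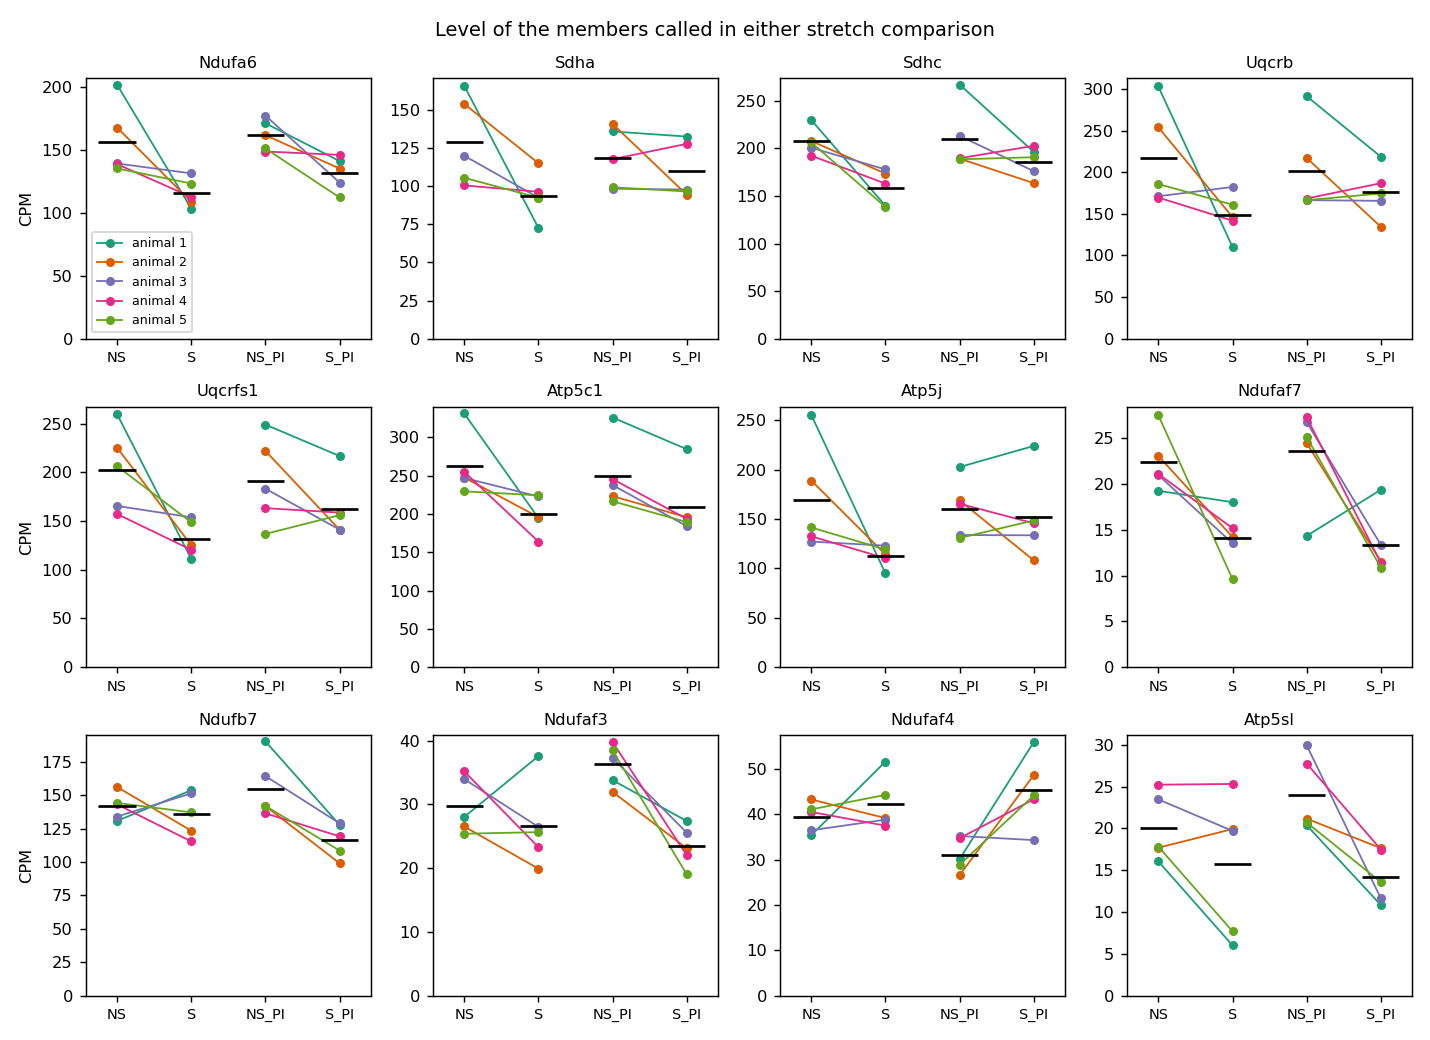
CPM of the 12 members called in either stretch comparison, in each library, with a line per animal between unstretched and stretched cells and a bar for the mean of 5. The top rows show Ndufa6, Sdha, Sdhc, Uqcrb, Uqcrfs1, Atp5c1, Atp5j and Ndufaf7, which were lower in S than in NS, with the steepest falls often in animals 1 and 2; the bottom row shows the 4 called only with inhibitor.

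No member passed the test for the inhibitor itself or for the interaction. Over all 8320 genes these comparisons (NS_PI against NS, S_PI against S, and the interaction) called 0 genes, or 0%, by edgeR's quasi-likelihood test with adjusted p below 0.05. At an unadjusted p below 0.05 there were 3, 1 and 1 members of 78, beside 5.47, 4.09 and 4.15% of all genes. DESeq2 called 0 members in each, and 7, 10 and 3 genes in all. The 3 members of NS_PI against NS were Uqcr11 (0.32 ± 0.13) and Uqcrh (0.28 ± 0.12), both higher in 5 of 5 animals, and Ndufaf4 (-0.34 ± 0.16), lower in 5 of 5. In S_PI against S it was Atp5j, with 0.39 ± 0.17 and 4 of 5 animals higher. The lowest interaction p was that of Uqcr11, a small subunit of complex III, with an estimate of -0.47 ± 0.18 and an adjusted p of 0.984 by edgeR's quasi-likelihood test. Mean levels of Uqcr11 were 234 CPM for NS and 282 for S, and with inhibitor 294 for NS_PI and 257 for S_PI, and its interaction was negative in 5 of 5 animals. The difference between calls without and with inhibitor was thus not resolved for any member: the interaction of Uqcrfs1 was 0.37 ± 0.23, that of Atp5j 0.45 ± 0.24, that of Ndufaf3 -0.46 ± 0.24 and that of Ndufaf4 0.43 ± 0.22. The standard errors of the interaction had a median of 0.21 over the members, beside 0.15 for each stretch comparison.

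The summed level of all 88 members differed little between groups. It was 17230 ± 1230 CPM (SD, n = 5) for NS and 17482 ± 1615 for S, and with inhibitor 18079 ± 1063 for NS_PI and 17232 ± 1054 for S_PI. The log2 ratio within animals was 0.02 ± 0.14 (SD) without inhibitor, with 2 of 5 animals higher, or -0.09 with library-size scaling, which moved the median of all genes to -0.12, and -0.07 ± 0.06 with it, with 1 of 5 higher. Animal accounted for 59.9% of the variance of the log2 sum, stretch for 1.69%, inhibitor for 1.82% and their interaction for 5.19%. By single gene the median share of stretch was 6.04% over the members and 13.1% over all genes, while the median share of animal was 35.1% and 37.5%. Animals were not alike in the falls: over the 8 members called without inhibitor the median log2 difference between S and NS was -1.07 in animal 1, -0.64 in animal 2, -0.13 in animal 3, -0.28 in animal 4 and -0.23 in animal 5. The stretched library of animal 1 stood out, being the lowest of the 20 in 16 of the 78 members (20.5%) and the highest in 21 (26.9%), beside 15.0% and 16.8% of all genes. Uqcrq and Atp5o, for example, were highest there, at 578 and 558 CPM, while Cox7c was lowest.

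Genes that build, feed or regulate the chain were read from 4 further lists. Of 27 tested assembly factors outside the symbol rule, 8 (29.6%) were lower and none was higher with stretch. The shares of all tested genes were 12.4% lower and 12.5% higher. With inhibitor 7 (25.9%) were lower and none higher, beside 15.3% and 15.2% of all tested genes. The median log2 fold changes were -0.35 and -0.40. Coa4, a complex IV assembly factor, fell by 1.18 ± 0.18 without and 1.44 ± 0.19 with inhibitor. Tmem70, which serves ATP synthase assembly, fell by 1.24 ± 0.25 and 1.03 ± 0.25, and Ecsit, a complex I assembly factor that also acts in innate immune signalling, by 1.36 ± 0.33 and 1.15 ± 0.33. The call of Ecsit with inhibitor was lost without animal 2, 3 or 5 (adjusted p from 0.0603 to 0.073), with the compared groups only (0.0525) and without the animal block (0.118), and that without inhibitor only without the block (0.0629). Without inhibitor the fourth largest was Sdhaf2 (-0.78 ± 0.22), which adds flavin to Sdha, and with inhibitor Coa5 (-0.62 ± 0.12), a complex IV factor. The call of Sdhaf2 was lost without animal 2 (-0.50, adjusted p = 0.0945), with the compared groups only (0.0501) and without the block (0.0728). Without animal 2 the counts were 5 and 3, without animal 3 the count with inhibitor was 4, and without the animal block both were 3.

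Of 14 tested regulators of mitochondrial gene expression 5 (35.7%) were higher and 1 (7.14%) lower with stretch, beside 12.5% and 12.4% of all tested genes. With inhibitor 6 (42.9%) were higher and 2 (14.3%) lower, beside 15.2% and 15.3%. Polg2, the accessory subunit of the mitochondrial DNA polymerase, rose by 1.43 ± 0.24 and 1.27 ± 0.24, and Pprc1, a coactivator of the PGC-1 family, by 0.96 ± 0.23 and 1.45 ± 0.23. Myc, a transcription factor of cell growth, rose by 1.27 ± 0.32 and 1.64 ± 0.33. Gabpa, an ETS factor, rose by 0.49 ± 0.15 and 0.59 ± 0.15, and Yy1 by 0.52 ± 0.16 and 0.61 ± 0.16. The ETS and YY1 letters stood in 20 and 10 of the 75 member promoters, those of Ndufa6 and Atp5j among them. A link between these factors and member levels was not tested. Ssbp1, which binds single-stranded mitochondrial DNA, fell by 0.78 ± 0.26 and 0.96 ± 0.26, the first call being lost without animal 1, 2, 3 or 4 and without the animal block. Tefm, the mitochondrial transcription elongation factor, was also called lower with inhibitor, from a mean of 6.58 CPM in NS_PI to 1.87 CPM in S_PI; the latter lies within the range of the floor, so the size of its fall is uncertain. The 2 lower genes with inhibitor became 1 without animal 1 and 0 without animal 3, where Tefm failed the filter on low counts.

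Of 17 tested genes of other electron entry, ubiquinone and coupling, 1 (5.88%) was higher and 7 (41.2%) lower with stretch. The shares of all tested genes were 12.5% and 12.4%. With inhibitor 1 (5.88%) was higher and 1 (5.88%) lower, beside 15.2% and 15.3%. Coq10b, a ubiquinone-binding protein, rose by 1.25 ± 0.14 and 1.27 ± 0.14, from 70.2 to 167.1 CPM in the means of NS and S. Sqrdl, which passes electrons of sulfide to ubiquinone, fell by 1.03 ± 0.26 and 0.97 ± 0.26. Etfdh, which does so for electrons of fatty acid oxidation, fell by 1.18 ± 0.25 without inhibitor, and Coq9, of ubiquinone synthesis, by 0.78 ± 0.25. The call of Coq9 was lost without animal 1 (-0.53, adjusted p = 0.123), 3 or 5 (0.0581 and 0.0906), with the compared groups only (0.0608) and without the block (0.0838). The 7 lower genes without inhibitor became 3 without animal 1 or animal 2, 2 without animal 3, 4 without animal 5 and 1 without the animal block; the 1 lower with inhibitor became 3 without animal 1 and 2 without animal 3. Of 21 tested genes of pyruvate dehydrogenase and the citric acid cycle 2 (9.52%) were lower and none higher in each comparison. Of all tested genes 12.4% were lower without and 15.3% with inhibitor. Idh2, the mitochondrial NADP-dependent isocitrate dehydrogenase, fell by 0.58 ± 0.11 and 0.87 ± 0.11. Suclg1, a subunit of succinyl-CoA ligase, the step before complex II in the cycle, fell by 0.41 ± 0.11 without inhibitor, and Pdk2, a kinase that restrains pyruvate dehydrogenase, by 0.86 ± 0.20 with it. The calls of Idh2 and Suclg1 without inhibitor were lost without the animal block, and that of Suclg1 also without animal 3 or 5. The shares called in either direction in the 4 lists were 29.6, 42.9, 47.1 and 9.52% without inhibitor, beside 24.9% of all genes. With inhibitor they were 25.9, 57.1, 11.8 and 9.52%, beside 30.5%. The order is assembly factors, regulators, electron entry and citric acid cycle.

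**Figure D5:**
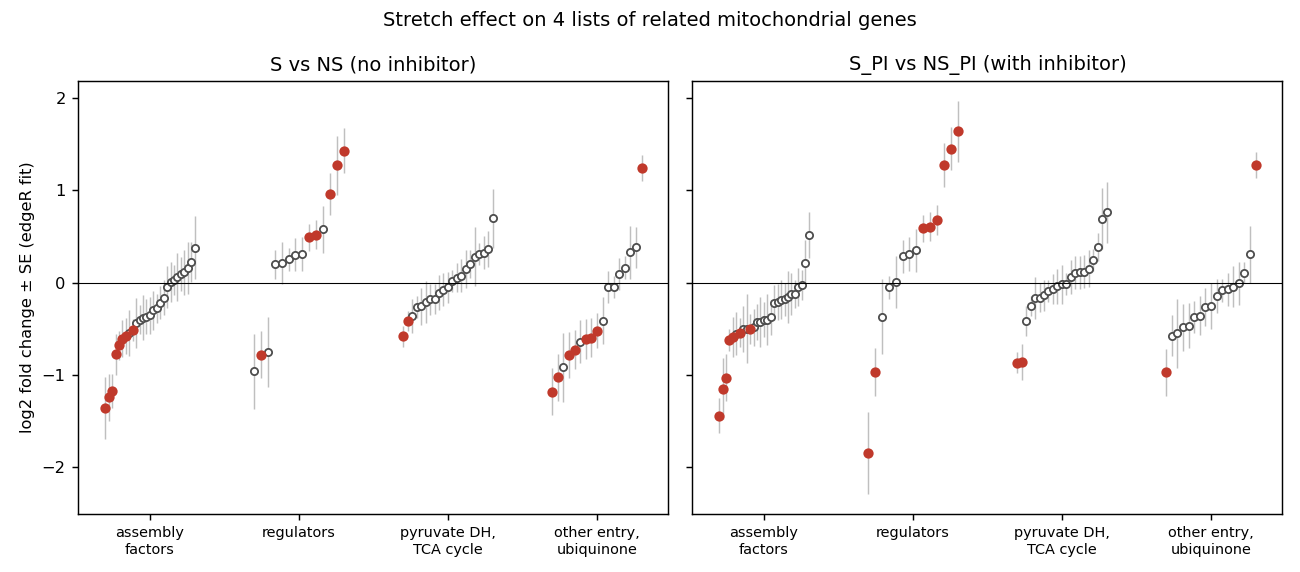
Log2 fold change of each tested gene in 4 lists of related mitochondrial genes between stretched and unstretched cells, without (left) and with (right) the inhibitor. Bars are standard errors and filled red points passed an adjusted p of 0.05 in edgeR's quasi-likelihood test; the red points of the assembly factors all lie below 0, and Coq10b is the red point above 0 in the group on the right of each panel.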

How the data were processed

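Read counts per gene symbol in 20 libraries were used as the authors deposited them. Per the submitters' processing notes the tools were STAR, HTSeq and DESeq2 and the build rn6; the sources used here do not give versions or annotation. A DESeq2 table that the authors also deposited holds, per the file headers, mean normalized counts (a signal per gene), log2 fold changes and their errors, the Wald score, and p-values, raw and adjusted; it names no groups, was read for the members only and takes no part in the fits. Alignment summary entries were left out of gene counts: records aligned to several places were 35.5 to 57.7% of all records per library and records outside genes 16.2 to 24.5%, so copies of near-identical genes may be undercounted.

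Genes were filtered with filterByExpr (minimum count 10), scaled by TMM and fitted in edgeR 4.0.16 (R 4.3.3) with terms for group and animal (the block) in 1 model of the 20 libraries (12 residual degrees of freedom); 8320 genes were tested by the quasi-likelihood F test and called at a Benjamini-Hochberg adjusted p below 0.05. The pairing by animal rests on the labels, where monolayers of 1 library come from 1 animal and the library numbers run from 1 to 5 in each group, and on the name of the deposited table, which controls for rat. A stretch effect that differs between animals has no term of its own, so it enters the residual spread. The block removes differences in level between animals, and p-values rest on the spread that remains, estimated from all groups together. With 1 library per animal and group, the technical and biological parts of that spread cannot be told apart. Standard errors (SE) are the size of the fitted log2 fold change divided by the square root of its F value in that test. Confidence intervals are the estimate plus or minus 2.179 SE, the t quantile for 12 degrees of freedom. The p-values of the F test rest on more degrees of freedom, so the intervals are somewhat wider than that test implies. Differences within animals were taken on log2(CPM + 1), and sums were described without a test. Complexes were assigned by hand. Alternatives were no block, library size, upper-quartile and DESeq2 (RLE) scaling, no filter, the compared groups only, DESeq2 1.42.0 and leaving out each animal; the same were run for the 4 further lists and for members added after the data had been seen. Members named singly were those called, the most abundant of each complex, the isoform pairs, the Sdh genes and Cycs, and, chosen after their values were seen, Ndufs6, Cyc1, Uqcrc2, Cox5a, Uqcrq, Atp5o, Atp5l those with a low unadjusted p and those called under an alternative alone. From each further list the called genes with the 4 largest changes were named, and Gabpa and Yy1 for their motifs. The members and lists were chosen with earlier results of these data known. The procedure was tested on simulated data for S against NS. It called 13 of 100 genes with a true log2 change of 0.5 and 71 of 100 with a change of 1. Of 8120 genes without a change it called 2. In the measured libraries S against NS called 2075 of 8320 genes, many more than the 100 given each change above. The adjusted p depends on how many genes change. The rates above were not tested for such a share of called genes, nor for the members alone, so they may not hold for the members. Without inhibitor the estimates of 71 of the 78 members were below 0.5 in size. Members that did not pass may still have changed.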

Additional observations from a re-analysis of the deposited data

Results flagged for a closer look

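Groups of 5 libraries were screened for 49 named members with over 10 reads and 7 summed levels, by 4 groups. Of these 224 groups, 17 held a library far from the other 4, with a gap above 0.71 of the range. For normally distributed values chance gives about 1 in 20. Some members were named after their values were seen, and some groups hold very few reads. The 17 can therefore not be set against that rate. Of the 17 libraries 10 were of animal 1. Atp5c1 was high there in NS (331.4 CPM, the others 229.6 to 255.2), in NS_PI (325.9 CPM, the others 216.7 to 245.6) and in S_PI (284.6 CPM, the others 184.1 to 195.7). Atp5g3 was high in NS_PI (2467 CPM, the others 1798 to 1951), Cycs in NS (21.11 CPM, the others 9.264 to 10.26) and Uqcrfs1 in S_PI (216.7 CPM, the others 141 to 158.7). In S of animal 1 Atp5o was high (558.3 CPM, the others 193.5 to 292.3), and so was Ndufa4 (721.5 CPM, the others 271.3 to 392.3). Cox6a2 was high in S_PI of animal 1 (9.125 CPM, the others 0 to 2.324). Ndufaf7 was low in NS_PI of animal 1 (14.35 CPM, the others 24.48 to 27.29).

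The other 7 were of members at low levels. Ndufs5 was high in S of animal 5 (11.54 CPM, the others 3.201 to 5.54) and Ndufaf5 in NS_PI of animal 3 (12.07 CPM, the others 8.333 to 9.25). Cox4i2 was high in animal 5, in NS (1.62 CPM, the others 0 to 0.459) and in S_PI (5.43 CPM, the others 0 to 1.518). Cox6b2 was high in S of animal 5 (2.564 CPM, the others 0 to 0.6156) and in NS_PI of animal 4 (0.925 CPM, the others at 0), and in NS of animal 3 it was at 0 CPM (the others 0.459 to 0.5866). The cause was not tested.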

How the results depend on the processing

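The 8 members lower with stretch without inhibitor became 12 with library-size and 9 with upper-quartile scaling, 2 without the animal block, 5 with no filter, 1 with the compared groups only, and 0 to 5 on leaving out 1 animal, lowest without animal 2; 0 to 2 were then higher. Members called higher numbered 2 with DESeq2 size factors in edgeR and 3 with DESeq2. With inhibitor 13 were lower with library-size scaling and 10 with upper-quartile scaling, and 1 to 5 on leaving out 1 animal; 2 were higher with no filter and with DESeq2, and 0 to 1 on leaving out 1 animal. Library-size scaling moved the median of all genes to -0.12 in both stretch comparisons and the member median with inhibitor to -0.20. It gave log2 ratios of summed CPM with inhibitor of -0.17 for all members, -0.16 for complex III and -0.17 for complex V, and upper-quartile scaling gave -0.15, -0.14 and -0.15.

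The direction of some estimates that did not pass the test turned. Library-size scaling gave -0.034 for Atp5g3 and -0.033 for Uqcrh with inhibitor, and -0.0071 for Atp5g3, -0.054 for Atp5g1 and -0.0059 for Ndufaf4 without it. Upper-quartile scaling gave -0.013 for Atp5g3 and -0.012 for Uqcrh with inhibitor, and -0.00094 for Atp5g1 without it. Leaving out animal 2 gave 0.032 for Atp5j and 0.0085 for Sdha with inhibitor. Leaving out 1 animal gave -0.13 to 0.020 for Ndufb7 without inhibitor, highest without animal 2, -0.32 to 0.014 for Ndufc2, highest without animal 1, -0.38 to 0.038 for Cox7a2, highest without animal 1, -0.68 to 0.21 for Ndufs8, highest without animal 2, and -0.092 to 0.24 for Atp5g1, negative without animal 2 or 4. For Sdhd with inhibitor it gave 0.026 without animal 3. The cause was not tested. Of the calls with inhibitor, Ndufaf3 held in 11 of 12 alternatives. The pairing by animal bears on the counts above; with inhibitor 4 of the 5 calls were kept without the block. Depth limits Ndufs6, Ndufaf1 and the members near the floor.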
